A study of Mus musculus with 2 samples.

Results

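Colony-stimulating factors direct the survival, growth and maturation of myeloid cells, and 6 genes that encode their receptors and 1 of their ligands were followed here in cultured mouse macrophages. The set was chosen by gene symbol: Csf1r, Csf1, Csf2ra, Csf2rb, Csf2rb2 and Csf3r. All 6 were found once each among the 31053 genes listed in both count matrices, and the rule itself used no measured value. Csf1r is the receptor tyrosine kinase for CSF1 (M-CSF), the factor on which most tissue macrophages depend, and for IL-34. CSF2 (GM-CSF) binds a receptor made of the specific chain Csf2ra and the signalling β chain Csf2rb, which the IL-3 and IL-5 receptors share. Csf2rb2 is a mouse-specific relative of that β chain that serves IL-3. Csf3r, the receptor for CSF3 (G-CSF), is best known on the neutrophil lineage.

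The cells were bone marrow derived macrophages of the 129Sv mouse strain, grown from marrow in 10% serum with 50 ng/ml M-CSF, the ligand of Csf1r, so both groups were under constant stimulation through 1 of the receptors studied. On day 7 one culture received a truncated form of Tamm-Horsfall protein (THP, a kidney-made protein also called uromodulin) at 1 µg/ml, and the other received its vehicle, 5% dextrose, each for 18 h. One droplet single-cell RNA library was made from each culture, so no difference below has a replicate check, no test between conditions was possible, and treatment, dish and library cannot be told apart. The THP library held 13193 cell barcodes, of which 12123 passed the filter on genes, unique molecular identifiers (UMIs) and mitochondrial share, with a median of 16113 UMIs per cell. The vehicle library held 11584, of which 10978 passed, with a median of 17223 UMIs. The libraries shared 42 barcodes, of which 38 passed in both, and doublets were not removed.

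Levels are given as UMIs per 1000000 UMIs (CPM) with exact 95% Poisson intervals, and these intervals cover counting error only. Ratios are log2 of THP over vehicle after adding 1 CPM. In all kept cells the median ratio of the 8012 genes at 10 CPM or more was −0.18, and edgeR's TMM scaling factors moved it to 0.10. Ratios also followed transcript length, with a Spearman's rho of −0.55 across 8008 genes, which are not independent replicates. The smoothed trend stood at −0.36 at the length of Csf1r, −0.38 at that of Csf2rb and −0.05 at that of Csf2ra. Its part in the members' ratios was not tested.

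The culture was not made of macrophages alone, so cells were assigned to marker gates, and only cells in exactly 1 gate were used there. No member was a gate marker. The macrophage gate, set on markers such as Adgre1 (F4/80), Trem2 and the C1q genes, held 5655 cells (46.6%) with THP and 3659 (33.3%) with vehicle. Immature neutrophils made up 1437 and 1835 cells, myeloid progenitors 1065 and 1415, antigen-presenting cells with MHC class II 567 and 620, mature neutrophils 486 and 576, monocytes 472 and 648, and collagen-expressing stromal cells 65 and 57. In each of these gates between 2 and 7 of the 10 leading genes were markers of that gate. The gates were set on the same markers, so this count is no independent check of them. Mature neutrophils had median depths of only 1934 and 1719.5 UMIs, so their values rest on few molecules.

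The genes lie on separate chromosomes except for the β chains. On GRCm38, with GENCODE M21 genes, Csf1 spans chr3:107741048-107760469 on the minus strand, Csf3r spans chr4:126024550-126044440 on the plus strand, and Csf2ra spans chr19:61223957-61228429 on the minus strand. Csf2rb2 (chr15:78282507-78305721, minus strand) and Csf2rb (chr15:78325752-78353847, plus strand) point away from each other with 20030 bases between them. Their sequences are in part identical. Of the 50-base windows in the longest Csf2rb transcript, 18.4% also occur in a Csf2rb2 transcript, and 19.0% in the reverse direction. None of the 451 windows in the last 500 bases of either gene was shared.

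Of the members, 3 carry the core letters of a PU.1 site in the 250 bases before their RefSeq start, shown because the level of Spi1, the gene for PU.1, followed that of Csf2ra across gates. RefSeq promoter sequences (GRCm38.p6) were matched by symbol for 4 of the 6 genes. The letters GAGGAA were searched on both strands in the 250 bases before each start, and the matches stand in capitals in 30-base stretches, each printed 5′ to 3′ on the strand of its gene.
Csf2ra, chr19:61228419-61228448: ttcccaacctgcagatGAGGAAGAGGAAgc
Csf3r, chr4:126024561-126024590: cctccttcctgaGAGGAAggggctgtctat
Csf2rb2, chr15:78305871-78305900: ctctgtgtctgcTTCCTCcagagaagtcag
Distances were counted from the RefSeq start, which for 2 of these genes lies inside the GENCODE span given above. For Csf3r the RefSeq start (126024659) lies 109 bases into that span, and its 1 copy, 80 bases before the RefSeq start, is within the GENCODE gene. For Csf2ra the RefSeq start (61228418) lies 11 bases into the span. Its 2 adjoining copies end 8 and 2 bases before the RefSeq start, at and just inside the GENCODE start. Both annotations give Csf2rb2 the same start, and its 1 copy, on the opposite strand, lies 161 bases before it. The Csf1 window had none. Among all 32851 promoter windows of this length 23.3% held the letters, so a match is common. The letters TTNNGCAA, a C/EBP-type element found in 9.56% of windows, were in none of the 4.

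Between whole libraries none of the 6 members passed 2-fold, beside 3.88% of all genes at 10 CPM or more (311 of 8012). Csf1 was read 2030 times with THP and 2498 times with vehicle, or 9.03 CPM (8.64 to 9.43) against 12.0 CPM (11.6 to 12.5). Csf1r stood at 244 CPM (242 to 246) against 227 CPM (225 to 229), slightly higher with THP. Csf3r stood at 20.4 CPM (19.8 to 21.0) against 31.0 CPM (30.3 to 31.8), the widest gap of the set. For the GM-CSF and IL-3 receptor chains of the set the differences were small. Csf2ra was at 121 CPM with THP and 127 CPM with vehicle, Csf2rb at 99.9 and 116 CPM, and Csf2rb2 at 16.2 and 18.7 CPM.

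The ratios in all kept cells were 0.10 for Csf1r, −0.38 for Csf1, −0.07 for Csf2ra, −0.22 for Csf2rb, −0.19 for Csf2rb2 and −0.58 for Csf3r. With TMM factors Csf1r (0.39), Csf1 (−0.12) and Csf3r (−0.31) kept their direction, whereas Csf2ra (0.21), Csf2rb (0.07) and Csf2rb2 (0.08) changed sign. In a mixed culture fewer cells of a type and less RNA per cell cannot be told apart at this level, and the share of cells in each gate differed between the libraries.

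**Figure D1:**
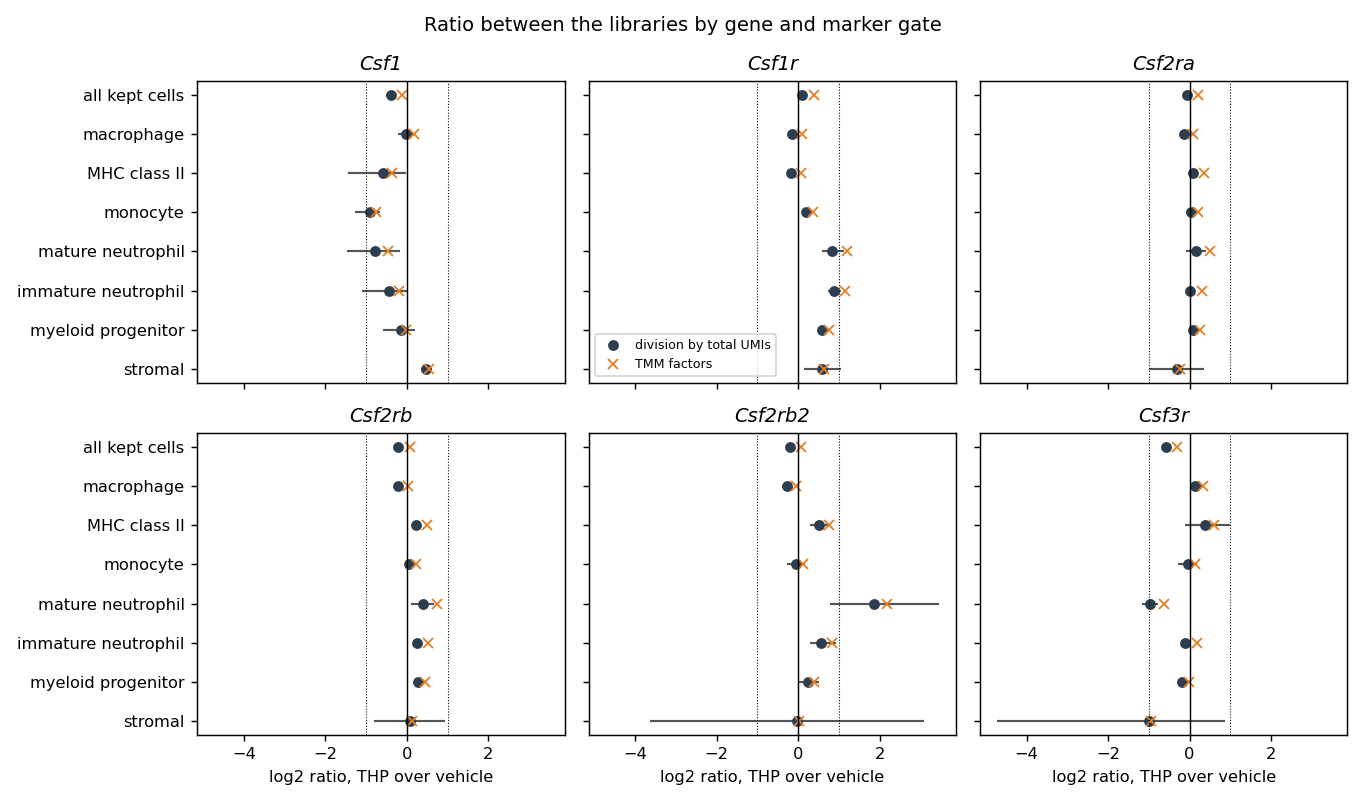
Log2 ratio of THP over vehicle (horizontal axis) for each gene in all kept cells and in 7 marker gates. Circles are ratios after division by total UMIs, lines are 95% counting intervals of the fold, crosses use TMM factors, and dotted lines mark 2-fold. Csf1r lay right of 0 in both neutrophil gates (0.84 and 0.87), and Csf3r lay near the left dotted line in mature neutrophils (−0.97).

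Csf1r was read mainly in macrophages, and its library-level difference did not hold within them. The macrophage gate held 76.9% of Csf1r UMIs with THP and 68.4% with vehicle. Within the gate Csf1r stood at 294 CPM (291 to 296) with THP and 325 CPM (321 to 328) with vehicle, a ratio of −0.14 that became 0.09 with TMM factors. A Csf1r UMI was found in 96.8% and 97.9% of these cells. The whole THP library, where Csf1r was higher, also had the larger share of cells in this gate, and what part that share has in the difference was not tested.

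Outside macrophages Csf1r followed a graded order. MHC class II cells stood at 195 CPM with THP and 221 CPM with vehicle, a ratio of −0.18 that became 0.08 with TMM factors. Monocytes stood at 182 and 158 CPM, myeloid progenitors at 86.8 and 57.8 CPM, and immature neutrophils at 75.2 and 40.6 CPM. Mature neutrophils broke this order with 301 CPM (269 to 336) with THP, close to macrophages, and 168 CPM (145 to 194) with vehicle. Lymphoid-like and B lineage cells, which should lack the receptor, were read as a guide to free RNA, which was not measured directly. Their gates held between 1 and 6 Csf1r UMIs, with a UMI in 8.62% and 2.56% of lymphoid-like cells at median depths of 6040.5 and 3769 UMIs. Thinned to 1000 UMIs per cell, Csf1r was seen in 25.2% and 28.5% of macrophages but in 1.72% and 0 of 58 and 39 lymphoid-like cells. The stromal gate stood higher than these guides, at 57.8 CPM (46.3 to 71.3) with THP and 38.4 CPM (30.6 to 47.5) with vehicle. A UMI was found in 26.2% and 29.8% of stromal cells. The vehicle level of immature neutrophils lay within that vehicle interval. What part free RNA or doublets had in these levels was not tested.

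**Figure D2:**
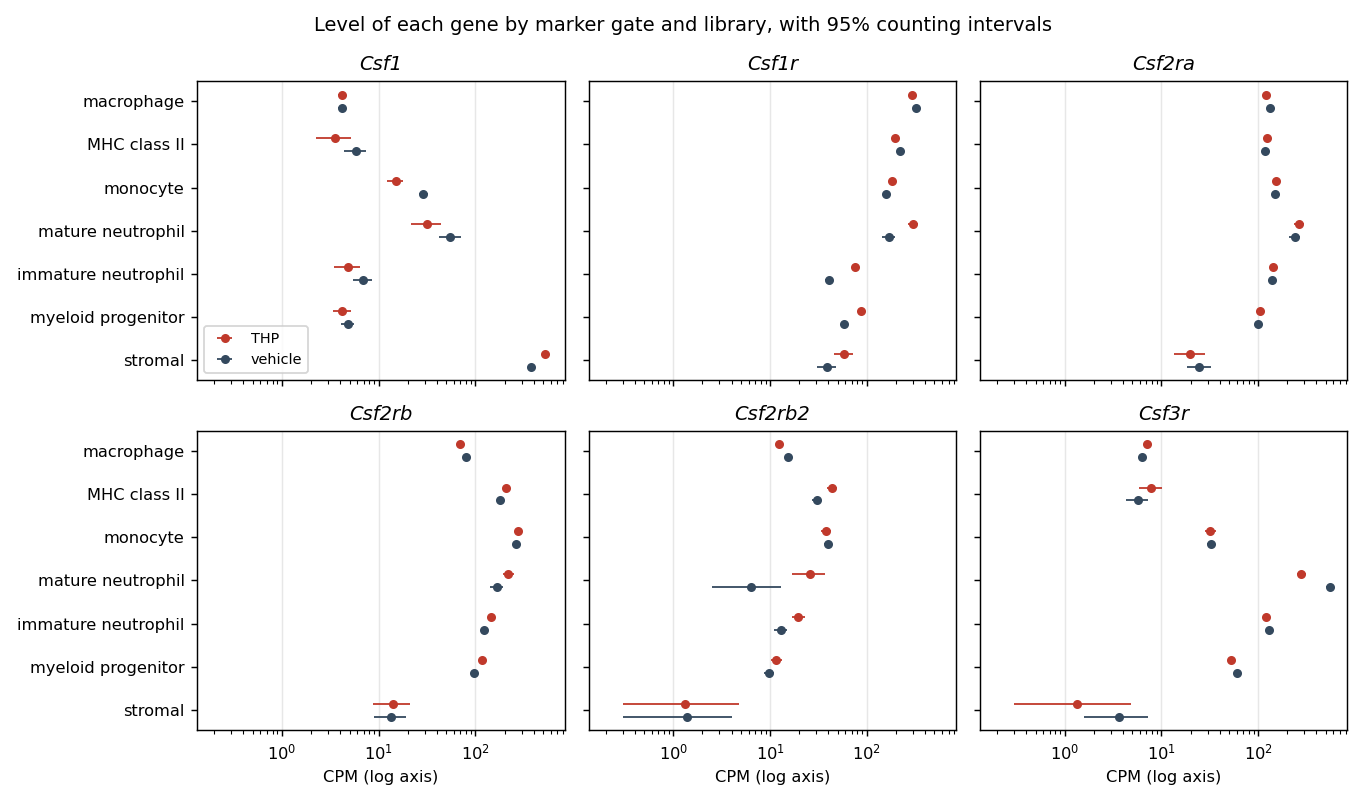
Level of each gene in CPM (log axis) in 7 marker gates, with THP in red and vehicle in dark grey; bars are exact 95% Poisson intervals, cut at 0.3 CPM on the left. Csf1 peaked in the stromal gate (525 and 376 CPM), Csf1r was high in macrophages (294 and 325 CPM), and Csf3r peaked in mature neutrophils (281 and 550 CPM).

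Csf1, the ligand, had its highest level in a few stromal cells. The stromal gate, 0.536% of kept cells with THP and 0.519% with vehicle, held 38.9% and 32.9% of all Csf1 UMIs. The macrophage gate held 29.3% and 16.7%, and monocytes 5.62% and 14.9%. In the stromal gate its level was 525 CPM (489 to 563) with THP and 376 CPM (351 to 402) with vehicle, a ratio of 0.48 (0.55 with TMM factors), and 92.3% and 94.7% of the cells had a UMI. The stromal cells of the libraries stood apart in other measures. Their median sum of stromal markers was 76.9 per 10000 UMIs with THP and 182 with vehicle, and their median depths were 19854 and 36985 UMIs. The part of these in the Csf1 difference was not tested. Macrophages had 4.14 and 4.20 CPM. In monocytes the difference lay the other way, with 14.9 CPM (12.3 to 17.9) against 28.9 CPM (26.1 to 32.02), a ratio of −0.91 (−0.75 with TMM factors). Mature neutrophils had 33 and 61 Csf1 UMIs, or 31.4 and 55.1 CPM. Il34, the other Csf1r ligand, was rare, and 13 of its 35 UMIs with THP and 25 of 28 with vehicle fell in the stromal gate. The macrophage gate held 14 Il34 UMIs with THP and 0 with vehicle.

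**Figure D3:**
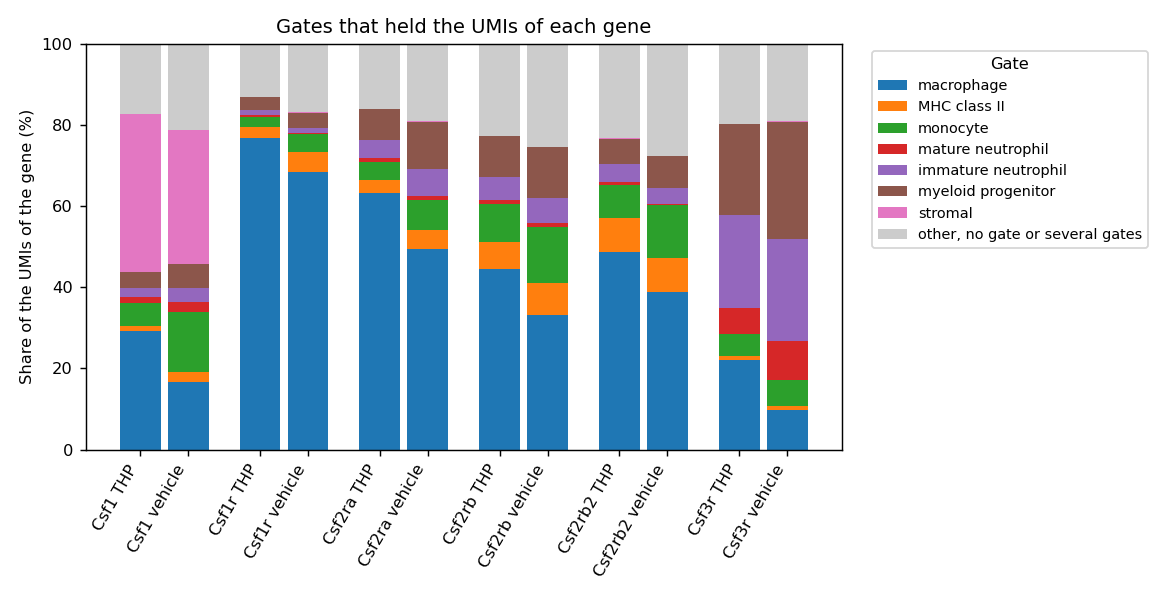
Share of the UMIs of each gene (vertical axis, percent) held by each marker gate, with 1 bar per gene and library. Macrophages held 76.9% and 68.4% of Csf1r UMIs, stromal cells 38.9% and 32.9% of Csf1 UMIs, and neutrophil and progenitor gates most of the assigned Csf3r UMIs.

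The GM-CSF receptor chains were spread over the 6 larger myeloid gates. There Csf2ra ranged from 105 CPM in progenitors to 265 CPM in mature neutrophils with THP, and from 98.9 to 238 CPM in the same gates with vehicle. Csf2rb had its highest levels among the 7 larger gates in monocytes, at 275 CPM (263 to 287) with THP and 263 CPM (254 to 272) with vehicle, against 69.8 and 80.7 CPM in macrophages. In stromal cells both were low, with Csf2ra at 19.9 and 24.7 CPM and Csf2rb at 14.0 and 13.3 CPM. Both chains were seen together in 80.1% and 82.3% of monocytes and in 54.3% and 58.5% of macrophages. Thinned to 1000 UMIs these shares were 2.12% and 3.70% of monocytes and 0.866% and 1.01% of macrophages.

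Macrophages gave ratios of −0.14 for Csf2ra and −0.21 for Csf2rb, which became 0.10 and 0.02 with TMM factors. In MHC class II cells Csf2rb was at 209 and 178 CPM (ratio 0.23) and Csf2rb2 at 43.8 CPM (39.1 to 48.9) and 30.4 CPM (27.2 to 33.9), a ratio of 0.51. Progenitors had a Csf2rb ratio of 0.27 and immature neutrophils one of 0.25. Csf2ra differed little in these gates, with ratios of 0.09 in MHC class II cells and in progenitors and 0.02 in immature neutrophils.

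The β chain Csf2rb2 formed an unequal part of all β-chain UMIs. It was 15.04% (14.4 to 15.7, exact binomial interval) in macrophages with THP and 15.9% (15.2 to 16.6) with vehicle, and 8.98% and 9.07% in progenitors. In mature neutrophils it was 10.55% (7.07 to 14.97) with THP and 3.66% (1.49 to 7.41) with vehicle, from 27 and 7 Csf2rb2 UMIs. In the mast cell or basophil gate it reached 34.8% (25.1 to 45.4) and 42.9% (33.8 to 52.3). That gate held only 23 and 15 cells, but 21 and 15 of them had a Csf2rb UMI. Csf2rb stood at 476 and 713 CPM and Csf2rb2 at 254 and 535 CPM. How reads from the shared stretches were counted was not examined, so the split is uncertain. Csf2ra had only 1 and 6 UMIs in this gate.

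**Figure D4:**
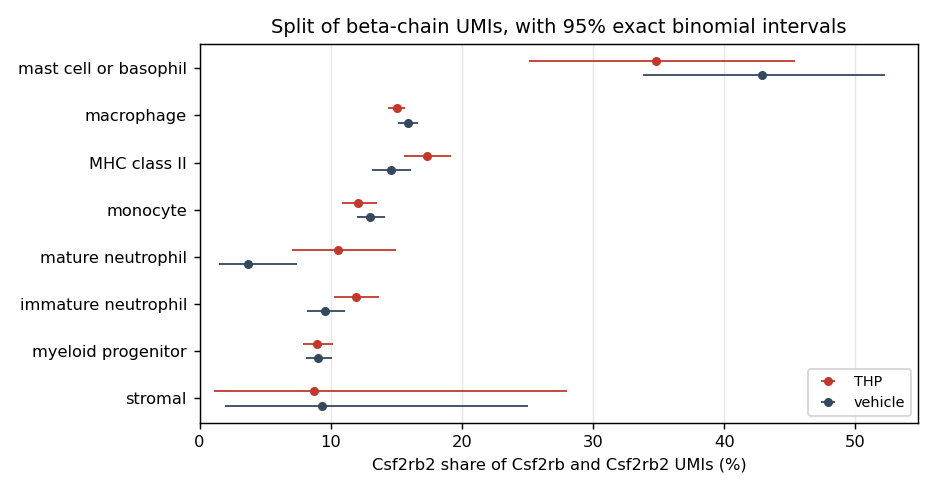
Csf2rb2 as a share of Csf2rb and Csf2rb2 UMIs (horizontal axis, percent) in 8 marker gates, with exact 95% binomial intervals and THP in red, vehicle in dark grey. The mast cell or basophil gate stood highest (34.8% and 42.9%), and progenitors were near 9% (8.98% and 9.07%).

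Csf3r was a gene of the neutrophil lineage in these cultures. With THP it stood at 281 CPM (249 to 314) in mature neutrophils, 122 CPM (115 to 130) in immature neutrophils and 52.8 CPM (49.6 to 56.1) in progenitors. With vehicle the same gates had 550 CPM (507 to 595), 131 CPM (125 to 137) and 60.4 CPM (57.7 to 63.2). Monocytes had 31.98 and 32.9 CPM, and macrophages 7.04 and 6.31 CPM. Both macrophage levels lay within the interval of the 3 Csf3r UMIs of lymphoid-like cells with THP (8.60 CPM, 1.77 to 25.1). So wide an interval cannot separate a low level in macrophages from free RNA. Stromal cells had 2 and 8 Csf3r UMIs, or 1.33 CPM (0.161 to 4.80) with THP and 3.66 CPM (1.58 to 7.21) with vehicle. The macrophage level lay above the stromal interval with THP and within it with vehicle. The source of the macrophage reads was not tested. The 5 gates from mature neutrophils to macrophages had the same order in both libraries, and the widest gap among them was in mature neutrophils.

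Within mature neutrophils Csf3r and Csf1r differed in opposite directions between the libraries, neither past 2-fold after division by total UMIs. Csf3r had 295 UMIs with THP and 609 with vehicle, a ratio of −0.97 (−0.62 with TMM factors). Csf1r had 317 and 186 UMIs, a ratio of 0.84 (1.19 with TMM factors). The median ratio over all genes of this gate was −0.36. Csf2rb had 229 and 184 UMIs, a ratio of 0.39, and Csf2rb2 only 27 and 7, a 4.06-fold difference (1.73 to 11.1). Without thinning, 41.6% and 22.9% of cells had a Csf1r UMI and 43.6% and 61.3% a Csf3r UMI. Thinned to 1000 UMIs, 22.8% of mature neutrophils with THP and 12.8% with vehicle had a Csf1r UMI, and 28.4% and 44.1% had a Csf3r UMI. Cells with Csf1r but no Csf3r UMI were 18.3% and 7.99%, and cells with both were 4.53% and 4.86%.

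**Figure D5:**
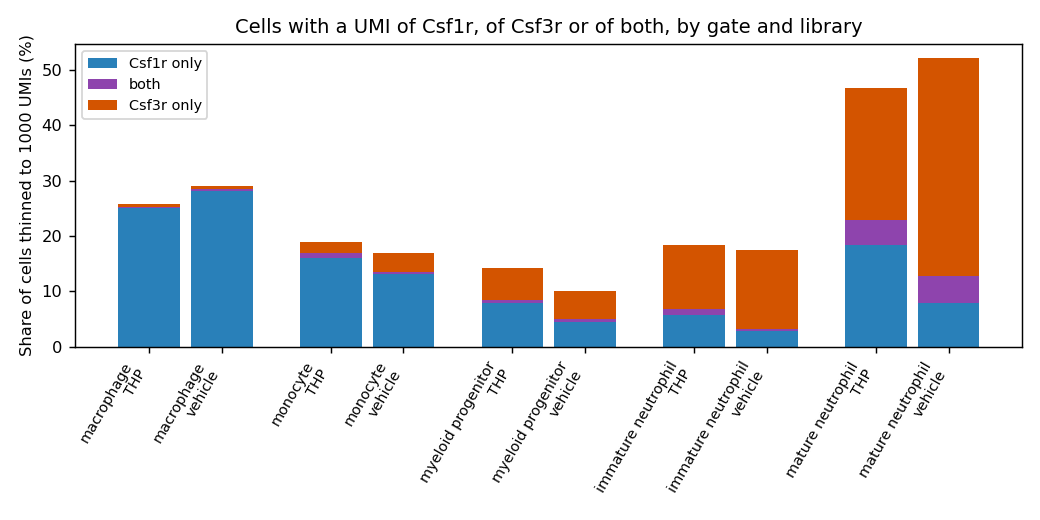
Share of cells, after thinning each to 1000 UMIs (vertical axis, percent), with a UMI of Csf1r only, of both or of Csf3r only, in 5 marker gates and both libraries. In mature neutrophils the Csf1r-only share was 18.3% with THP and 7.99% with vehicle, and the Csf3r-only share was 23.9% and 39.2%.

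A like difference in Csf1r was present in immature neutrophils, at 75.2 CPM (69.5 to 81.2) against 40.6 CPM (37.1 to 44.3), and in progenitors, at 86.8 CPM (82.7 to 91.0) against 57.8 CPM (55.1 to 60.5). Their ratios were 0.87 and 0.58, or 1.15 and 0.75 with TMM factors. Csf3r differed less there, with ratios of −0.10 (0.18 with TMM factors) and −0.19 (−0.02 with TMM factors). Higher Csf1r with THP was not particular to these gates. In stromal cells it stood at 57.8 and 38.4 CPM, from 87 and 84 UMIs, a ratio of 0.58 (0.64 with TMM factors). That ratio changed sign when the gate's cut was doubled. Monocytes had a ratio of 0.20 (0.36 with TMM factors), and only macrophages (−0.14) and MHC class II cells (−0.18) lay below 0.

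In the neutrophil and progenitor gates the macrophage markers lay in the same direction as Csf1r, but in monocytes they did not. The 12 macrophage markers summed to 610 CPM with THP and 460 CPM with vehicle in mature neutrophils, with 8 of 12 higher with THP. They summed to 248 and 183 CPM in immature neutrophils (10 of 12) and to 227 and 144 CPM in progenitors (12 of 12). In macrophages they summed to 4443 and 4723 CPM. In monocytes they summed to 587 and 654 CPM (6 of 12), where Csf1r had a ratio of 0.20. Their part in the Csf1r difference was not tested. For each Adgre1 UMI there were 2.13 Csf1r UMIs (1.75 to 2.60) in mature neutrophils with THP and 1.54 (1.22 to 1.95) with vehicle, against 0.613 and 0.857 in macrophages. Immature neutrophils had 1.81 and 1.30, and progenitors 2.04 and 1.81. The ratio to Adgre1 was 1.30 and 0.857 in stromal cells and 3.00 (0.536 to 30.4) in lymphoid-like cells with THP, from 6 and 2 UMIs. The pattern depended on the marker. For each Cd68 UMI there were 2.02 and 1.09 Csf1r UMIs in mature neutrophils and 1.49 and 0.967 in immature neutrophils. Progenitors had 1.87 and 1.86 for Cd68, and macrophages 0.596 and 0.678. For Trem2 the same gates in this order had 8.34 and 7.15, 2.34 and 1.58, 2.06 and 2.18, and 0.490 and 0.482. Retnlg, a marker of mature neutrophils, stood at 7301 CPM with THP and 14255 CPM with vehicle in their gate. The full list of mature neutrophil markers differed little there. Its median sum per cell, on the scale used to set the gates, was 118 with THP and 123 with vehicle. On that scale immature neutrophil markers in this gate stood at 140 and 84.3, and S100a8 with S100a9 at 2530 and 2025. The THP median for the immature markers lay above the cut of the immature neutrophil gate, and the vehicle median lay below it. The label of mature neutrophil is therefore less certain for the THP cells of this gate. The part of these markers in the member differences was not tested.

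Of the 42 pairs of member and gate, 1 passed 2-fold at 10 CPM, Csf2rb2 in mature neutrophils, where 23.9% of all genes did (4.45% in the higher direction). No member passed in the other gates, where the shares of genes past 2-fold were 3.17% in macrophages, 3.39% in monocytes, 7.67% in immature neutrophils, 3.07% in progenitors, 7.25% in MHC class II cells and 11.1% in stromal cells. That call was lost when the gate's cut was doubled (0.82). Csf1r passed in both neutrophil gates with TMM factors, where 19.3% of genes did in mature and 3.94% in immature neutrophils. It also passed under an earlier version of the gates (1.02 and 1.09), where 20.5% and 10.9% of genes did.

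Among macrophages the receptor chains varied with cell state. Each state was scored on its own, so a cell could count in several, except that C1q-high and C1q-low excluded each other. Cells with Atp6v0d2 and Mmp12, genes of osteoclast-like and matrix-degrading macrophages, made up 724 and 686 cells and had Csf2ra at 204 CPM (198 to 211) with THP and 207 CPM (201 to 214) with vehicle. They had Csf2rb at 158 and 163 CPM and Csf2rb2 at 38.0 and 37.3 CPM. In C1q-high macrophages (2286 and 1413 cells) the same chains stood at 106 and 101 CPM, 55.9 and 59.7 CPM, and 9.25 and 10.4 CPM. C1q-low macrophages (1681 and 1256 cells) lay between, with Csf2ra at 144 and 164 CPM and Csf2rb at 91.1 and 106 CPM. Csf1r was highest of these 3 states in C1q-high cells, with 308 and 342 CPM, against 277 and 305 CPM in C1q-low cells and 278 and 310 CPM in cells with Atp6v0d2 and Mmp12. Vsig4 macrophages (384 and 324 cells) had Csf1r at 316 and 336 CPM and Csf2rb at 58.8 and 45.4 CPM, and mitotic macrophages (2785 and 1803 cells) had Csf1r at 287 and 312 CPM. In the Atp6v0d2 and Mmp12 state the counting intervals of all 3 GM-CSF and IL-3 receptor chains overlapped between libraries.

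Besides Csf1, the ligands Csf3 and Csf2 were read in the cultures. Csf3, which binds Csf3r, had 253 UMIs with THP and 2 with vehicle, a 117-fold ratio of CPM (32.01 to 970, from counting error), and 221 of the 253 came from the macrophage gate. Csf2 had 73 and 17 UMIs, a 3.97-fold ratio of CPM (2.32 to 7.17). Both remained near or under 1 CPM in the whole libraries (1.13 and 0.325 CPM with THP) and so below the level at which ratios were counted. The macrophage gate held 34 Csf2 UMIs with THP and 2 with vehicle, an 11.8-fold ratio of CPM (3.01 to 101). The lymphoid-like gate held 7 and 5, and cells in no gate 23 and 6. Il3 had none in either library, and the 3 counts that a 0 allows are 0.0133 and 0.0144 CPM. Il3ra, the IL-3 specific chain, stood at 32.4 CPM with THP and 30.5 CPM with vehicle.

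Genes of the pathway were read from lists compiled for these receptors. Of 18 proximal signalling genes, the kinases and adaptors next to the receptors, 2 had a higher and 16 a lower level with THP, with a median ratio of −0.40 beside −0.18 over all genes, but 7 were higher with TMM factors. None passed 2-fold. Sos1, a Ras exchange factor, had the lowest ratio of them (−0.68), at 12.0 CPM with THP and 19.9 CPM with vehicle, and Plcg2, a phospholipase, followed (−0.64), at 41.4 and 65.0 CPM.

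Negative regulators at 10 CPM or more numbered 9 of 12, with 4 higher, 5 lower and a median of −0.08, and 1 past 2-fold, beside 3.88% of all genes. That was Socs3, the feedback inhibitor of Csf3r and gp130 signalling, at 12.6 CPM with THP and 2.27 CPM with vehicle (ratio 2.05). Within macrophages it was 12.6 against 1.13 CPM, a ratio of 2.68. Of 15 target genes at this level 9 were higher and 6 lower, with a median of 0.01, and 4 passed 2-fold, again beside 3.88% of all genes. Bcl2a1a, Bcl2a1b and Bcl2a1d, near-identical survival genes whose counts can be mixed, were higher with ratios of 2.15, 1.84 and 1.63. Dusp6, a phosphatase induced by ERK signalling, was lower, at 44.7 against 91.1 CPM (−1.01, and −0.73 with TMM factors).

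The 13 lineage transcription factors had a median ratio of −0.26, with 5 higher and 8 lower, and none passed 2-fold in all kept cells. In macrophages Cebpd passed, at 275 CPM with THP and 83.4 CPM with vehicle (1.71). Spi1, which encodes PU.1, stood at 553 and 379 CPM in macrophages (0.54), while Csf1r in the same gate differed by −0.14.

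Over the 15 gate and library sums with at least 50 cells, the level of each member was compared with 10525 other genes by Pearson's r of log2 levels. These points share gates and libraries, so r is only a description. Csf1r was most like Ccl9 (0.94), Gch1 (0.94), the gate marker Adgre1 (0.94), Raet1e and Tnni2, and Csf1 like Acta2 (0.95), which encodes smooth muscle actin, Pla1a, Olfml3, Bnc2 and Postn. Csf2ra was most like Milr1 (0.97), Spi1 (0.96), Alox5ap, Skap2 and Arpc1b. Csf2rb was most like Gpr141 (0.95), Arpc1b, Milr1, Gnai2 and Spi1 (0.92), and Csf2rb2 like Rap1a (0.96), Gnai2, Gas7, Csf2rb and Jarid2. Csf3r was most like the gate marker S100a8 (0.97), Nfe2 (0.96), Gm9733, Msra and Msrb1. Within the set, Csf2ra and Csf2rb had an r of 0.92, Csf2rb and Csf2rb2 0.92, and Csf1r and Csf3r 0.10.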

How the data were processed

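Droplet single-cell RNA libraries were made from 1 THP-treated and 1 vehicle-treated culture. The deposited matrices hold whole-number UMI counts per gene and barcode, and per the file headers they were written by software version 3.1.0. Per the submitters' processing notes bcl2fastq, Cell Ranger, STAR and the mm10 build were used.

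Barcodes with at least 500 genes, at least 1000 UMIs and at most 10% mitochondrial UMIs were kept, with 224825484 UMIs for THP and 207662132 for vehicle. Counts were summed per library and gate and given as CPM with exact 95% Poisson intervals; shares have Clopper-Pearson intervals, and intervals of fold condition on the total of both counts. A difference was counted past 2-fold on log2(CPM + 1) at 10 CPM or more in either library. No p-value was computed, since each group had 1 library. TMM and RLE factors came from edgeR 4.0.16 in R 4.3.3; other steps used Python 3.11.15, numpy 2.4.6, scipy 1.17.1 and statsmodels 0.14.6 and were tested on simulated data.

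Gates sum marker UMIs per 10000 UMIs. The members and lists were chosen with earlier results of these data known. The gate markers and the use of cells in exactly 1 gate were set in the design. The cuts and the order of precedence between gates were settled over 3 looks at the score distributions, with the members' levels by gate in view each time. A first version was replaced because its marker lists overlapped; its values are given among the alternatives. Also chosen after values were seen were the depth for thinning, the cuts of the macrophage states and the pairs of genes seen together. So were the ratios to Adgre1, Cd68 and Trem2 and the promoter stretches shown. Genes named are the 6 members, list genes past 2-fold or otherwise with the largest ratios, and the 5 genes most like each member. Csf2, Csf3, Il34, Il3 and Il3ra, and Spi1 in macrophages, were named after their values were seen. Some genes of the lists that this rule would name are not reported here.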

Additional observations from a re-analysis of the deposited data

Results flagged for a closer look

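Csf1 was higher with THP in the stromal gate (525 against 376 CPM) and lower in the monocyte gate (14.9 against 28.9 CPM), so that the log2 ratios lay 1.39 apart in opposite directions. Csf2rb2 was higher with THP in mature neutrophils (27 against 7 UMIs) and lower in macrophages (12.4 against 15.2 CPM), a distance of 2.15. Csf3r was slightly higher with THP in macrophages (7.04 against 6.31 CPM) and lower in mature neutrophils (281 against 550 CPM), a distance of 1.11. The wide interval in lymphoid-like cells could not separate these macrophage levels from free RNA, and their source was not tested. With 1 library per group each of these differences between gates was not tested.

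Barcodes left out by the cell filter, 1070 with THP and 606 with vehicle, also carried members. Csf1r stood at 396 CPM with THP and 242 CPM with vehicle there, a 1.64-fold difference (1.45 to 1.86), and Csf2rb at 151 and 112 CPM, a 1.35-fold difference (1.11 to 1.63). Csf3r lay the other way, at 66.4 and 93.7 CPM (0.709-fold, 0.558 to 0.900). These barcodes entered no comparison, and the differences were not tested.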

How the results depend on the processing

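No paired analysis was possible because each group had 1 library. In all kept cells, Csf2ra became 0.21 with TMM and with RLE factors, Csf2rb 0.066 and 0.060, and Csf2rb2 0.076 and 0.070, all against the sign given above. With equal weight per cell Csf2rb2 became 0.045, Csf1r 0.22, Csf2rb −0.070 and Csf3r −0.88. With TMM and RLE factors Csf1r was 0.39 and 0.38, Csf1 −0.12 in both, and Csf3r −0.31 in both. Without the 5% of cells with most UMIs Csf1r was 0.13, Csf1 −0.28, Csf2ra −0.036 and Csf2rb −0.18. The length trend was also taken out and the median ratio of all genes (−0.18) put back. Csf1r was then 0.28, Csf1 −0.26, Csf2ra −0.20, Csf2rb −0.015 and Csf2rb2 −0.010. These signs depend on that median. Before any correction Csf2rb (−0.22) and Csf2rb2 (−0.19) lay above the trend at their lengths (−0.38 and −0.36). Csf2ra (−0.07) lay just below its own (−0.05). The count of genes past 2-fold went from 311 to 207 with TMM and with RLE factors, and was 425 with no minimum level. The cause of these shifts was not tested.

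Within gates, 1 of 42 pairs of member and gate passed 2-fold, against 3 of 42 with TMM factors and 3 of 36 under the first version of the gates. All were in the neutrophil gates, where the share of all genes past 2-fold was 23.9% (mature) and 7.67% (immature), 19.3% and 3.94% with TMM factors, and 20.5% and 10.9% under the first version. Csf1r in macrophages became 0.088 with TMM factors, Csf2ra 0.096 and Csf2rb 0.024, and Csf1r in MHC class II cells 0.078. Csf1r in stromal cells became −0.15 with the cut doubled. Halved cuts and leaving out the deepest cells left under 50 stromal cells in a library, and the first version of the gates left 18 and 21 progenitors, so these gave no value. Leaving out shared barcodes, TMM factors within gates and the first version of the gates were chosen after seeing the data. Leaving out the shared barcodes, or using all deposited barcodes, moved no ratio of all kept cells beyond its counting interval. Mature neutrophils rest on the fewest UMIs.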
